A study of Rattus norvegicus with 18 samples.

Results

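Libraries of the fa/fa genotype were compared with those of lean rats in the kidney cortex of the Zucker diabetic fatty (ZDF) strain. The series holds 18 libraries of messenger RNA, and all 18 enter this comparison. The 6 lean libraries came from fa/+ rats labelled lean, healthy and non-diabetic. The 12 fa/fa libraries came from rats labelled diabetic, of which 6 form the disease control group and 6 underwent Roux-en-Y gastric bypass (RYGB). Each fa/fa group was given the same weight, and most of what follows concerns genes displaced the same way in both, that is, genes still displaced in the operated rats. The 12 libraries share the fa/fa genotype and the diabetic label, so genotype, obesity and diabetes cannot be told apart in this comparison. Age and sex are not labelled, no sham operation is named, and it is not stated that libraries stem from different animals, so the p-values cover only the spread among the libraries at hand.

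The fa allele alters the leptin receptor, encoded by Lepr, through which the fat hormone leptin restrains food intake. Rats with 2 copies of it become obese and insulin resistant, and in the ZDF line diabetic, while carriers of a single copy stay lean. Gastric bypass lowers food intake and blood glucose but leaves the genotype as it is. The cortex consists largely of proximal tubules, whose late segment (S3) in rodents carries many genes that respond to sex steroids, among them organic anion transporters of the Slco family and the kidney androgen-regulated protein Kap.

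Values are normalised reads, that is, reads per gene divided by 1 size factor per library. Libraries held between 8116638 and 42713246 reads in genes, and their size factors lay between 0.4014 and 2.022. Markers of the early proximal tubule were high in every library, with a summed value of 214900 to 410100 in lean, 169100 to 351300 in disease and 224700 to 367700 in RYGB libraries. In bulk tissue, fewer cells of a type and less RNA per cell cannot be told apart. Genes with an adjusted p under 0.05 were called (limma on log2(value + 1), Benjamini-Hochberg over the 13988 genes tested), and a difference is fa/fa minus lean on that log2 scale unless stated otherwise.

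Some libraries stood apart from their group. Each library was placed between the lean mean (0) and the fa/fa mean (1) over the genes called when that library was left out. The library lean 4 lay at a median of 1.1, over 694 genes, while the other lean libraries lay between -0.1 and 0.115. The library disease 6 lay at 0.328 over 409 genes, and the remaining fa/fa libraries lay between 0.669 and 1.17. On the genes that changed most, over 4-fold, both stood nearer to their labels, at 0.344 for lean 4 (46 genes) and 1.05 for disease 6 (38 genes). On the genes of over 4-fold change called without each of them, RYGB 2 lay at 0.304 (44 genes), RYGB 4 at 0.335 (43 genes) and disease 5 at 0.554 (44 genes). Lean 4 and disease 6 held 8116638 and 11975867 reads in genes, against a median of 18009043 over all libraries, but disease 1 (8157977 reads) and disease 5 (11004307 reads) were of like depth and lay at 0.688 and 0.669. All libraries were kept, and counts are given with and without these 2.

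**Figure D1:**
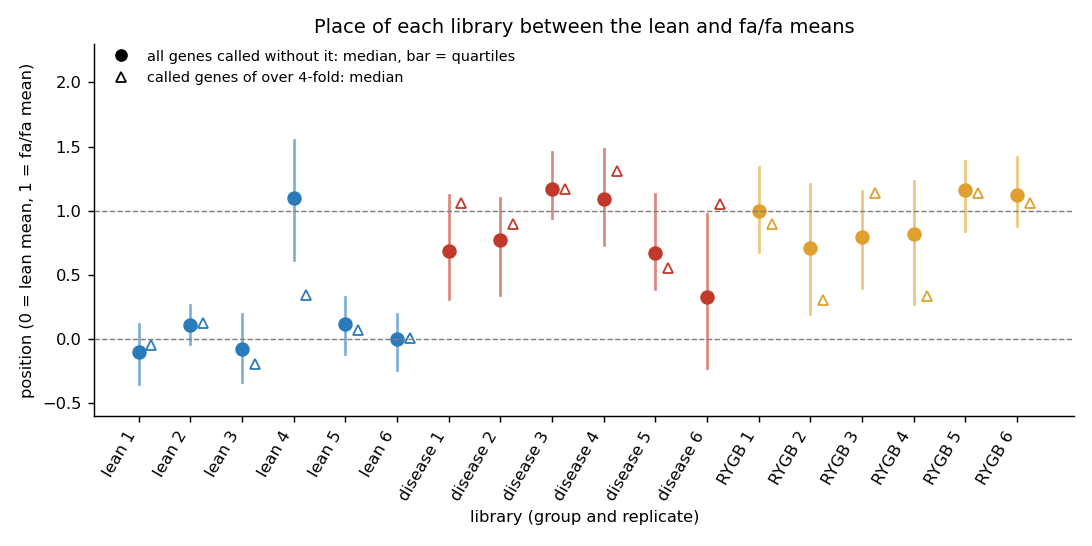
Place of each of the 18 libraries between the lean mean (0) and the fa/fa mean (1), on genes called without that library. Filled points are medians over all such genes with bars for the quartiles, and open triangles are medians over genes changed more than 4-fold. Lean 4 lies at 1.1 by the filled point and 0.344 by the triangle, and disease 6 at 0.328 and 1.05.

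The fa/fa libraries differed from lean in 185 of 13988 genes (1.32%), of which 81 were higher (0.579%) and 104 lower (0.743%). In 128 of the 185 (0.915% of all tested genes) the difference was shared, meaning that disease and RYGB differed from lean in the same direction and the smaller difference was at least 0.5 of the larger. Of these, 54 were higher and 74 lower. In 28 genes (0.200%) every fa/fa library lay on 1 side of every lean library, 8 higher (0.0572%) and 20 lower (0.143%). Unadjusted p-values below 0.05 were found for 2524 genes. Without lean 4 the count called was 694 (4.97%), with 315 higher (2.26%) and 379 lower (2.72%). Of these, 460 were shared (3.30%), and 124 genes showed no overlap (0.889%; 51 higher, 0.365%, and 73 lower, 0.523%). Without both lean 4 and disease 6 the count was 1785 (12.8%), with 845 higher (6.07%) and 940 lower (6.75%). Then 1328 were shared (9.54%) and 271 showed no overlap (1.95%; 126 higher, 0.905%, and 145 lower, 1.04%). These 2 libraries were singled out by their place on the comparison itself, so the larger counts are a description. Of the 185 genes, 182 were called without lean 4 and 183 without both. Among fits that left out 1 library the smallest count, 106, was found without lean 1, and the counts without RYGB 2 or RYGB 4 were 214 and 192.

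The genes that fell furthest included 2 of known androgen response, Slco1a1 and Kap, whose promoters are shown because the group below turns on them, together with that of Acsm3. Each line gives the 250 bases before the RefSeq start on the gene's own strand in the GRCr8 assembly, and capitals mark the letters TGTTCT or, on the other strand, AGAACA, an element bound by steroid hormone receptors. Slco1a1 lies at chr4:176681993-176682242 on the minus strand, Kap at chr4:168409033-168409282 on the minus strand and Acsm3 at chr1:183564402-183564651 on the plus strand.
Slco1a1: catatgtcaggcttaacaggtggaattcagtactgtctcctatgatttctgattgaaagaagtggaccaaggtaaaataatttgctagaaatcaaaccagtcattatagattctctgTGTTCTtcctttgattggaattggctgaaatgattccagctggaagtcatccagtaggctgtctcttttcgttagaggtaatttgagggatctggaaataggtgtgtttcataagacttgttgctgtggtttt
Kap: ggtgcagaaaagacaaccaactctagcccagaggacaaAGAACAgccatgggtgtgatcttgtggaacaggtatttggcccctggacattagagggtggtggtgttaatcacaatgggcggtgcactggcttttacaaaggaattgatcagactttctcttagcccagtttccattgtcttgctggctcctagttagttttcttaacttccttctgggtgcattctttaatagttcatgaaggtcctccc
Acsm3: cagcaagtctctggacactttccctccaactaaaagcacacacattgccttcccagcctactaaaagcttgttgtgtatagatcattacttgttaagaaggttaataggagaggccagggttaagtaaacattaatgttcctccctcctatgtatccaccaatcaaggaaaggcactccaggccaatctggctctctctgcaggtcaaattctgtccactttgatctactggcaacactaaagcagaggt
The element starts 133 bases before the start in Slco1a1 and 212 bases before it in Kap, and these letters are not in the window of Acsm3. Of all genes called lower, 66 had a window and 15 of these (22.7%) held the element. The share was 8 of 47 (17%) for genes called higher, 958 of 8780 (10.9%) for all tested genes with a window and 4049 of 24206 (16.7%) for all windows of the table. The full palindrome, 2 such elements facing each other across 3 bases, was in none of these windows. TATAAA, the core of the TATA box, was in 11 of the 66 windows of genes called lower (16.7%), in 11 of 47 of those called higher (23.4%) in 559 of 8780 of all tested (6.37%) and in 3210 of all 24206 windows (13.3%). These shares were not tested against each other.

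Slco1a1, an organic anion transporter of the proximal tubule, fell more than any other gene with a shared difference and a named symbol that met the level chosen for naming. Lean libraries ranged from 765.4 to 2591 normalised reads (median 1662), disease libraries spanned 4.216 to 138.7 (median 48.62) and RYGB libraries 41.53 to 502.9 (median 75.35). Every fa/fa library lay below every lean library. The difference was -4.71 ± 0.61 (SE; adjusted p = 0.000349), and it was -5.62 for disease and -3.80 for RYGB, which share the same lean libraries. Reads that fit several members of this transporter family were not counted to a gene, so its level is uncertain to that extent. The lowest lean value, 765.4, belonged to lean 4.

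Kap, named for its response to androgens in the kidney, was among the most strongly reduced genes. It lay at 16420 to 84690 (median 64990) in lean, 2094 to 13670 (median 4264) in disease and 4075 to 33490 (median 10940) in RYGB libraries. All disease libraries lay below the lean ones, while the highest RYGB libraries overlapped with lean 4, the lowest lean library. The difference was -2.82 ± 0.45 (adjusted p = 0.00197). Slc7a13, an amino acid transporter of the S3 segment, fell by 2.81 ± 0.56 (adjusted p = 0.0107). Its medians were 10530 in lean, 861.2 in disease and 2311 in RYGB, and its difference was not shared by the ratio used here, at -3.76 for disease and -1.86 for RYGB. RYGB 2 (10810) and RYGB 4 (13260) held Slc7a13 at the lean level, while the other RYGB libraries lay at 1037 to 2627, and these 2 libraries also held the highest RYGB values of Kap, 28460 and 33490. Acsm3, a medium-chain acyl-CoA synthetase, moved less but separated all libraries, with 26610 to 34080 in lean, 14850 to 23820 in disease and 17550 to 24190 in RYGB. Its difference of -0.56 ± 0.11 (adjusted p = 0.0107) was almost alike in disease (-0.59) and RYGB (-0.53), and it was not called after quantile normalization (adjusted p = 0.0722).

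Of 12 tested genes listed as androgen responsive in kidney, these 4 fell and 0 rose, beside 0.743% of all tested genes called lower. The median of the list was -0.53 against -0.00407 over all tested genes. By group it was -0.74 in disease and -0.20 in RYGB. RYGB minus disease was called higher in 2 of the 12, beside 258 of all 13988. RYGB minus disease was 1.82 for Slco1a1 (95% interval 0.35 to 3.29, adjusted p = 0.146) and 1.39 for Kap (95% interval 0.31 to 2.47, adjusted p = 0.133), so neither was called between the fa/fa groups. Of the 8 without a call against lean, Slc22a2, an organic cation transporter, was at -0.79 (adjusted p = 0.0573), and Fkbp5, which also responds to glucocorticoids, at 0.70 (adjusted p = 0.103). Slc22a2 was at -1.40 in disease and -0.18 in RYGB, which differed (RYGB minus disease adjusted p = 0.00559). Slco1a1, Slc7a13 and Acsm3 also belong to the 13 tested S3 markers, of which 4 fell and 0 rose (median -0.56). The fourth S3 marker to fall was Cyp7b1, an oxysterol hydroxylase, at -0.65 ± 0.14 (adjusted p = 0.0166). That value averages -0.21 in disease and -1.08 in RYGB, which differed (RYGB minus disease -0.88, adjusted p = 0.00343). Its call was lost without lean 1, lean 2 or lean 6, and with 2 group means (adjusted p of 0.0505 to 0.186). S3 transporters without a call included Slc22a7 at -1.99 (adjusted p = 0.0672), Slco1a6 at -1.91 (adjusted p = 0.0753) and Slco4c1 at -1.65 (adjusted p = 0.0933). Slco1a6 was at -3.13 in disease and -0.68 in RYGB, which differed (RYGB minus disease adjusted p = 0.0267). The 3 S3 markers above 0 were Acy3 at 0.55, Slc27a2 at 0.27 and Napsa at 0.26, also without a call. The summed level of the S3 markers was 81450 to 115700 in lean, 61100 to 81400 in disease and 69820 to 116700 in RYGB. None of 16 tested markers of the early proximal tubule were called, and their median was 0.06. Without lean 4 and disease 6, 5 androgen-responsive genes fell and 2 rose, and 8 S3 markers fell and 1 rose. In that setting 6.75% of all tested genes were called lower and 6.07% higher. The labels give no sex, and Ddx3y, a Y-linked gene and the only one of 5 listed that is in the table, lay between 0 and 4.983 in all libraries. How far the build and annotation used for counting cover the Y chromosome is not known, so this does not tell the sex.

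Several other genes were at or near 0 in some fa/fa libraries. Serpinb12, a serine protease inhibitor, lay at 29.8 to 143.7 (median 59.96) in lean, 0 to 6.859 (median 2.094) in disease and 0 to 9.007 (median 3.194) in RYGB libraries. No fa/fa library reached the lean range, and lean 4, at 58.87, lay near the lean median. The difference was -4.28 ± 0.51 (adjusted p = 0.000125), with -4.38 in disease and -4.19 in RYGB. Cyp2c24, a cytochrome P450 of a large family whose shared reads were not counted, fell by 4.16 ± 0.62 (adjusted p = 0.00126). It lay at 150.5 to 379.7 in lean, 0 to 38.54 in disease and 5.988 to 127.6 in RYGB, with no overlap. Anxa13, a membrane-binding annexin of epithelia, fell by 3.33 ± 0.38 (adjusted p = 9.93e-05). Its values of 56.54 to 154.5 in lean, 3.513 to 12.33 in disease and 4.409 to 48.04 in RYGB did not overlap with lean either. Its medians in the fa/fa groups were 6.134 and 17.89, and RYGB minus disease was 1.27 with a 95% interval of 0.37 to 2.18 (adjusted p = 0.106).

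Pappa2 and Igf1, which act in the same growth factor pathway, each fell. Pappa2, a protease that frees insulin-like growth factors from their binding proteins, lay at 184 to 546.7 (median 324) in lean, 28.11 to 70.55 (median 49.18) in disease and 32.34 to 99.07 (median 55.23) in RYGB. All fa/fa libraries lay below all lean ones and both fa/fa groups covered nearly the same range. The difference was -2.57 ± 0.26 (adjusted p = 7.79e-05), and RYGB minus disease was 0.21 with a 95% interval of -0.42 to 0.85. Igf1, insulin-like growth factor itself, lay at 110.4 to 529.1 (median 499) in lean, 92.11 to 224.2 (median 142.5) in disease and 54.04 to 131 (median 94.19) in RYGB. Lean 4 alone, at 110.4, overlapped with the fa/fa libraries, and the difference was -1.76 ± 0.29 (adjusted p = 0.00255). Igf1 was the only called gene among 21 of the insulin, growth hormone and leptin pathways, whose median was -0.13. The insulin receptor gene Insr was at -0.28 (adjusted p = 0.357), the growth factor's receptor gene Igf1r at -0.19 (adjusted p = 0.497) and the growth hormone receptor gene Ghr at -0.16 (adjusted p = 0.52).

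**Figure D2:**
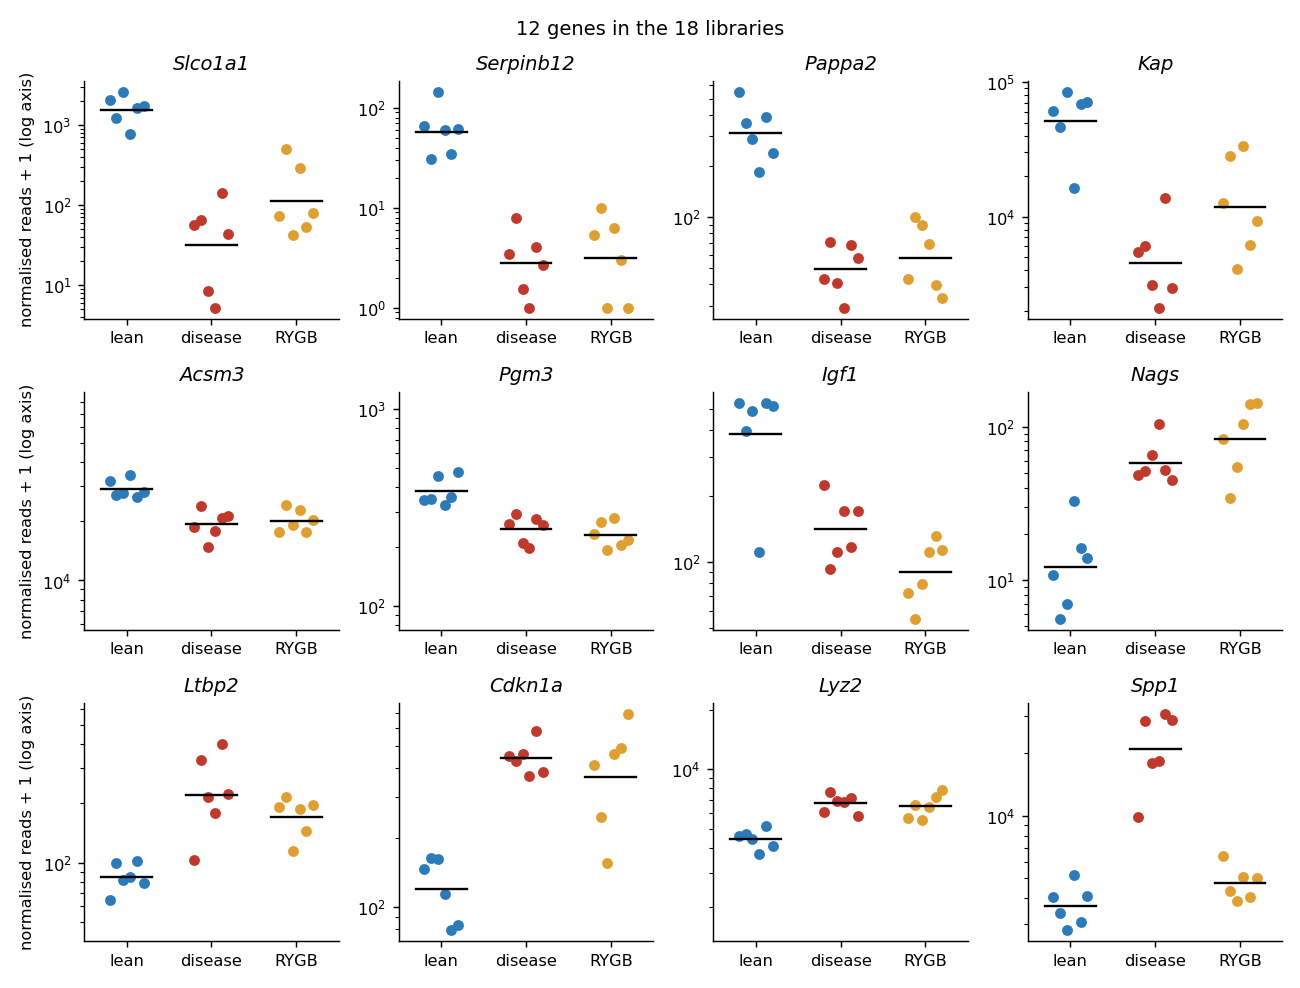
Normalised reads + 1 on log axes for 12 genes in the 18 libraries, by group, with a bar at the group mean on the log2 scale. In Slco1a1, Serpinb12, Pappa2, Acsm3 and Pgm3 the disease and RYGB points all lie below the lean points, in Nags, Ltbp2 and Lyz2 all above, and in Spp1 the RYGB points lie near the lean points.

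The remaining genes named for a large fall have varied roles. Acot5, an acyl-CoA thioesterase with close relatives whose shared reads were not counted, fell by 3.24 ± 0.56 (adjusted p = 0.00421), with medians of 114.2 in lean, 10.38 in disease and 6.827 in RYGB. Gc, the vitamin D binding protein, fell by 2.80 ± 0.56 (adjusted p = 0.0119), and its medians were 353.1, 30.23 and 71.88 in the same order. The highest disease libraries of Acot5 and, for Gc, RYGB 2 (388.8) and RYGB 4 reached into the lean range. Iqch, an IQ-motif protein, fell by 2.47 ± 0.45 (adjusted p = 0.00553), and Dhrs7l1, a short-chain dehydrogenase relative, fell by 2.17 ± 0.44 (adjusted p = 0.0122). In both genes RYGB 2 and RYGB 4 lay within the lean range, at 186.1 and 214.1 for Iqch and at 4882 and 5542 for Dhrs7l1, as they did for Gc, and the other RYGB libraries lay below it, at 28.68 to 47.4 and at 782.5 to 1367. Mmp9, a gelatinase, fell by 2.08 ± 0.32 (adjusted p = 0.00166), from a median of 319.7 in lean to 106.7 in disease and 40.5 in RYGB. Dnah9, a heavy chain of ciliary dynein, was at -2.54 ± 0.56 (adjusted p = 0.0233), but this call was lost without lean 1, lean 2, lean 3, lean 5 or lean 6 (adjusted p of 0.0585 to 0.0903).

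Genes that rose included enzymes and carriers of nitrogen, bile acid and retinol handling. Nags, whose product makes the activator of the urea cycle, lay at 4.585 to 31.89 (median 11.39) in lean, 44.13 to 102.6 (median 50.42) in disease and 33.02 to 141.3 (median 92.59) in RYGB. Every fa/fa library exceeded every lean library, and lean 4 held the highest lean value. The difference was 2.52 ± 0.34 (adjusted p = 0.000584), with 2.27 in disease and 2.78 in RYGB. Abcb11, the bile salt export pump, rose by 2.41 ± 0.47 (adjusted p = 0.0106), with medians of 32.25 in lean, 111.9 in disease and 318.7 in RYGB. Its lean libraries reached 260, in lean 4, which overlapped with both fa/fa groups, and edgeR did not call it (adjusted p of 0.0547 and 0.0556). Rbp4, the plasma carrier of retinol, rose by 1.95 ± 0.36 (adjusted p = 0.00685), with medians of 373.5, 1298 and 2987, and again lean 4 held the highest lean value, 1673.

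Cdkn1a, an inhibitor of the cell cycle induced by stress, lay at 78.17 to 162 (median 129.3) in lean, 370.3 to 582.7 (median 441.3) in disease and 154.1 to 688.7 (median 437.7) in RYGB. Disease libraries all exceeded lean, and 1 RYGB library lay within the lean range. The difference was 1.76 ± 0.24 (adjusted p = 0.000655), and RYGB minus disease was -0.27 with a 95% interval of -0.86 to 0.32. Ltbp2, a protein of extracellular microfibrils, rose by 1.21 ± 0.22 (adjusted p = 0.00493). Its values of 63.54 to 100.9 in lean, 102.1 to 397.7 in disease and 113.7 to 213.2 in RYGB did not overlap with lean. Krt8, a simple epithelial keratin, rose by 0.82 ± 0.18 (adjusted p = 0.0206), at 0.82 in disease and 0.83 in RYGB. Of 17 tested genes of tubular injury, these 2 (Cdkn1a and Krt8), Spp1 and Clu rose, Prom1 fell, and 12 were not called (median 0.29). By group the list median was 0.612 in disease and 0.0366 in RYGB. RYGB minus disease was called lower in 6 of the 17 and higher in 1, beside 294 and 258 of all 13988. Unlike Cdkn1a and Krt8, Spp1 and Clu lay near lean in RYGB, at 0.359 and -0.0449. Prom1, a stem cell and tubule surface protein, fell by 0.65 ± 0.10 (adjusted p = 0.00147), more in RYGB (-0.86) than in disease (-0.43). RYGB minus disease was -0.43 for Prom1, with a 95% interval of -0.67 to -0.19 (adjusted p = 0.0395). With all libraries, 0.579% of all tested genes were called higher and 0.743% lower. Without lean 4 and disease 6, 7 genes of this list rose and 2 fell, beside 6.07% and 6.75% of all tested genes.

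Among the remaining genes named for a large rise, Glp1r, the receptor of the incretin hormone glucagon-like peptide, was higher by 1.21 ± 0.21 (adjusted p = 0.00382), with medians of 35.3 in lean, 102.6 in disease and 62.38 in RYGB. Sult1a1, a phenol sulfotransferase, was higher by 1.26 ± 0.20 (adjusted p = 0.00181), with medians of 811.6, 1704 and 2957. S100a9, a calcium-binding protein of neutrophils, was higher by 2.20 ± 0.44 (adjusted p = 0.0125) and Ctcfl, a germline relative of the insulator protein CTCF, by 1.91 ± 0.30 (adjusted p = 0.00193). In each of these 4 genes at least 1 fa/fa library lay within the lean range. Qrfpr, a neuropeptide receptor, was higher by 2.02 ± 0.42 (adjusted p = 0.0145), but not without lean 1 (adjusted p = 0.0585). Serpina1, the antitrypsin gene and a marker of hepatocytes, was higher by 2.02 ± 0.45 (adjusted p = 0.0246), with calls lost without lean 1, lean 2 or lean 5 (adjusted p of 0.0559 to 0.0787). The other 4 tested hepatocyte markers were not called, but all 5 lay above 0 (list median 0.92). Without lean 4 and disease 6, 3 of the 5 were called higher, beside 6.07% of all tested genes. Alb lay at means of 9.739 in lean, 41.4 in disease and 22.01 in RYGB, and the summed level of the list was 421.8 to 892.2 in lean, 790.8 to 1663 in disease and 789.6 to 1594 in RYGB. The part of other cell types in these rises was not tested. Bhmt, which remethylates homocysteine, was at 1.29 ± 0.28 (adjusted p = 0.0233), with lean 4 at 9744 against a lean median of 2047. Its call was lost without lean 1, lean 2, lean 3, lean 5 or lean 6 and with edgeR and DESeq2 (adjusted p of 0.0729 to 0.124).

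Few members of the metabolic lists were called. Me1, the malic enzyme that supplies NADPH to lipid synthesis, lay at 1683 to 3474 (median 2718) in lean, 1136 to 1771 (median 1489) in disease and 919.3 to 1195 (median 970.4) in RYGB. Only the highest disease library reached into the lean range. Its difference was -1.10 ± 0.12 (adjusted p = 9.93e-05), and RYGB lay lower than disease by a further 0.53 (95% interval of the difference -0.83 to -0.23, adjusted p = 0.0424). Me1 and Elovl5 fell and 14 others were not called among 16 tested genes of fatty acid synthesis (median -0.17). Pgm3, an enzyme of the hexosamine pathway, fell by 0.68 ± 0.12 (adjusted p = 0.00421), with no overlap between its 326.3 to 480.2 in lean and 197.5 to 291 in disease or 191.2 to 278.8 in RYGB. It was the only call among 20 genes of glucose handling (median 0.02). Among 27 genes of fatty acid oxidation, 1 rose and 1, Acot5, fell (median 0.17). Without lean 4, 7 rose, beside 2.26% of all tested genes called higher in that setting, while Acot5 again was the only gene to fall. The 7 included Angptl4, a lipoprotein lipase inhibitor, at 1.58 (adjusted p = 0.00134), and Eci1, an enoyl-CoA isomerase, at 0.88 (adjusted p = 0.00134). With all libraries neither was called, with Angptl4 at 0.96 (adjusted p = 0.267) and Eci1 at 0.63 (adjusted p = 0.136). That value of Angptl4 averages 1.425 in disease and 0.49 in RYGB.

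Among 18 cytochrome P450 genes, Cyp2c24, Cyp24a1 and Cyp7b1 fell and Cyp27b1 rose (median 0.07). Cyp24a1, which degrades active vitamin D, fell by 1.08 ± 0.25 (adjusted p = 0.0296), from a mean of 7042 in lean to 3944 in disease and 2774 in RYGB. Cyp27b1, which makes active vitamin D, was higher in the pooled comparison by 2.13 ± 0.42 (adjusted p = 0.0111), but its medians of 111.5 in lean, 120.8 in disease and 1900 in RYGB place disease near lean and RYGB far above both. It was not called with 2 group means (adjusted p = 0.261).

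Immune and vascular genes gave a few shared differences. Lyz2, macrophage lysozyme, lay at 3729 to 5171 (median 4503) in lean, 5810 to 7637 (median 6884) in disease and 5568 to 7827 (median 6523) in RYGB, with no overlap. Its difference was 0.58 ± 0.09 (adjusted p = 0.00204), at 0.60 in disease and 0.56 in RYGB, and reads shared with its lysozyme relatives were not counted. It was the only call among 15 macrophage markers (median 0.21), of which Cd68 was at 0.35 (adjusted p = 0.37) and Csf1r at 0.24 (adjusted p = 0.264). Of the 15, 10 lay above 0, and Cd163 (-0.42), Mrc1 (-0.23), Adgre1 (-0.16), Cx3cr1 (-0.10) and Aif1 (-0.05) lay below. Mrc1 was at 0.65 in disease and -1.10 in RYGB (RYGB minus disease adjusted p = 0.000334). Clec10a was at 1.34 and -0.32 (adjusted p = 0.000425), and Csf1r at 0.44 and 0.03, so these did not share the shift of Lyz2. The summed macrophage level, to which Lyz2 gave most, was 6008 to 8497 in lean, 9109 to 11860 in disease and 8192 to 11660 in RYGB. Prf1, the perforin of cytotoxic lymphocytes, fell by 1.33 ± 0.25 (adjusted p = 0.00697), with 35.3 to 63.54 in lean, 8.432 to 29.9 in disease and 15.01 to 31.69 in RYGB, again with no overlap. Gzma, a granzyme of the same cells, was at -1.69 ± 0.41 (adjusted p = 0.0434), also with no overlap. The other 9 tested lymphocyte markers were not called (list median 0.15), and 8 of the 11 lay above 0. Other genes of cytotoxic cells did not share this fall. Gzmk was at 0.14 in disease and 1.23 in RYGB (RYGB minus disease adjusted p = 0.0383). Nkg7 was at -1.05 in disease and 0.62 in RYGB (RYGB minus disease adjusted p = 0.0421). The summed level of all 18 listed lymphocyte genes with values, tested or not, was 458.7 to 826 in lean, 668.7 to 958.3 in disease and 553.9 to 639.5 in RYGB. Cd4 gave most of it, with means of 463.8, 544.7 and 396.1. Vwf, the von Willebrand factor of endothelium, fell by 1.23 ± 0.23 (adjusted p = 0.00797), and 12 other endothelial markers were not called (list median -0.14). Ciita, the activator of MHC class II genes, rose by 0.74 ± 0.15 (adjusted p = 0.0108), and 20 other genes of the interferon and MHC list were not called (list median -0.15). The call of Gzma was lost in 14 of 29 alternatives (adjusted p of 0.0514 to 0.138), namely without lean 1, lean 2, lean 3, lean 5 or lean 6, without disease 2, disease 3 or disease 4, without RYGB 1, RYGB 4, RYGB 5 or RYGB 6, with a pseudocount of 0.5 and with 2 group means.

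C4b, a complement component with close copies whose shared reads were not counted, rose by 1.76 ± 0.33 (adjusted p = 0.0077), with medians of 69.76 in lean, 332.7 in disease and 113 in RYGB. Cfb, complement factor B, rose by 0.63 ± 0.14 (adjusted p = 0.0233), but not without lean 1 or lean 3 or with 2 group means (adjusted p of 0.0649 to 0.0969). The other 18 tested genes of complement and coagulation were not called (list median -0.04). Cxcl11, an interferon-induced chemokine, was higher by 0.60 ± 0.13 (adjusted p = 0.0162), though not without lean 2 or lean 3 (adjusted p of 0.0585 to 0.0598). Cldn10, a claudin of the thick ascending limb, fell by 0.58 ± 0.10 (adjusted p = 0.00421) and was the only call among 6 markers of that segment (list median -0.48), where Umod, the gene of uromodulin, was at -0.80 (adjusted p = 0.109). Cldn10 was at -0.80 in disease and -0.37 in RYGB, and Umod at -1.36 and -0.24. Both differed between these groups (RYGB minus disease adjusted p of 0.0438 and 0.0294). The list median was -0.86 in disease and -0.03 in RYGB. RYGB minus disease was called higher in 3 of the 6, beside 258 of all 13988. Lpl, lipoprotein lipase, fell by 0.66 ± 0.14 (adjusted p = 0.023), but not without lean 1, lean 3 or lean 5 (adjusted p of 0.0508 to 0.0651), and 6 other fat cell markers were not called (list median -0.02).

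Further calls were lost when single libraries were left out. Gclc, the catalytic subunit for glutathione synthesis, was at -1.94 ± 0.43 (adjusted p = 0.0233), with medians of 37040 in lean, 5800 in disease and 14240 in RYGB. RYGB 2 (40000) and RYGB 4 (49520) lay above the lean median of Gclc, while the other RYGB libraries lay at 6833 to 17280. Its call was lost without lean 1, lean 2, lean 3 or lean 6 and with 2 group means and with replicate numbers as a block (adjusted p of 0.0505 to 0.0877). Gsta1, a glutathione transferase with close copies, was at -0.73 ± 0.17 (adjusted p = 0.0386), and 17 other genes of the glutathione list were not called (list median 0.05). Its call was lost in 12 of 29 alternatives (adjusted p of 0.0513 to 0.126), without any 1 of lean 1, lean 2, lean 3, lean 5, lean 6, disease 2, disease 3, RYGB 1, RYGB 3 and RYGB 6, and in the same 2 models. Elovl5, a fatty acid elongase, was at -0.45 ± 0.10 (adjusted p = 0.034) and lost its call in 11 (adjusted p of 0.0503 to 0.127), without any 1 of lean 1, lean 2, lean 3, lean 5, lean 6, disease 3, disease 4, RYGB 5 and RYGB 6, and in those models. Cxcl12, a chemokine that holds leukocytes, was at -0.70 ± 0.17 (adjusted p = 0.0395), and it and Cxcl11 were the only calls among 21 cytokine genes (list median -0.02). It lost its call in 12 (adjusted p of 0.0524 to 0.127), without any 1 of lean 1, lean 2, lean 3, lean 5, lean 6, disease 2, disease 4, RYGB 1, RYGB 3 and RYGB 5, and in those models. Mmp2, a gelatinase, was at -1.02 ± 0.21 (adjusted p = 0.0164), the only call among 25 matrix genes (list median -0.19), and lost it without lean 1, lean 2, lean 5 or lean 6 and with 2 group means (adjusted p of 0.0521 to 0.196). Without lean 4, 8 matrix genes fell, beside 2.72% of all tested genes called lower in that setting. Among them were the collagen genes Col1a1 at -0.76 (adjusted p = 0.0207) and Col3a1 at -0.76 (adjusted p = 0.00831). With all libraries these 2 were at -0.37 (adjusted p = 0.489) and -0.43 (adjusted p = 0.352). Those pooled values average unlike groups, with Col1a1 at 0.385 in disease and -1.12 in RYGB, and Col3a1 at 0.26 and -1.12. Mmp2 was at -0.30 in disease and -1.73 in RYGB. RYGB minus disease was called lower in 11 of the 25 matrix genes, beside 294 of all 13988.

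Of 39 lists, 24 had at least 1 call, and 4 of these had calls in both directions. The background for all list counts is 1.32% of tested genes called, 0.579% higher and 0.743% lower. No member was called in the lists of early proximal tubule, cholesterol synthesis (14 tested genes), distal convoluted and connecting tubule (8), collecting duct (11), podocyte (16), cell cycle (20), unfolded protein response (18), immediate early and heat shock genes (19), oxidative phosphorylation (27), lysosome (22), circadian clock (20), red blood cell (3), adrenal cortex (3), skeletal muscle (1) or Y-linked genes (0). The cell cycle list had the lowest median of these among lists with more than 10 tested genes, -0.38, but its groups lay on opposite sides of lean, at a median of 0.31 for disease and -1.05 for RYGB. Slco1a1 was the only call among 21 organic ion transporters (median -0.25), Epo the only one among 13 genes of iron, haem and hypoxia (median -0.06), Des the only one among 10 markers of mesangium and smooth muscle (median 0.04) and Clu the only one among 7 medulla markers (median 0.13). The summed level of the medulla markers was 24390 to 38470 in lean, 17240 to 32740 in disease and 17440 to 38450 in RYGB.

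**Figure D3:**
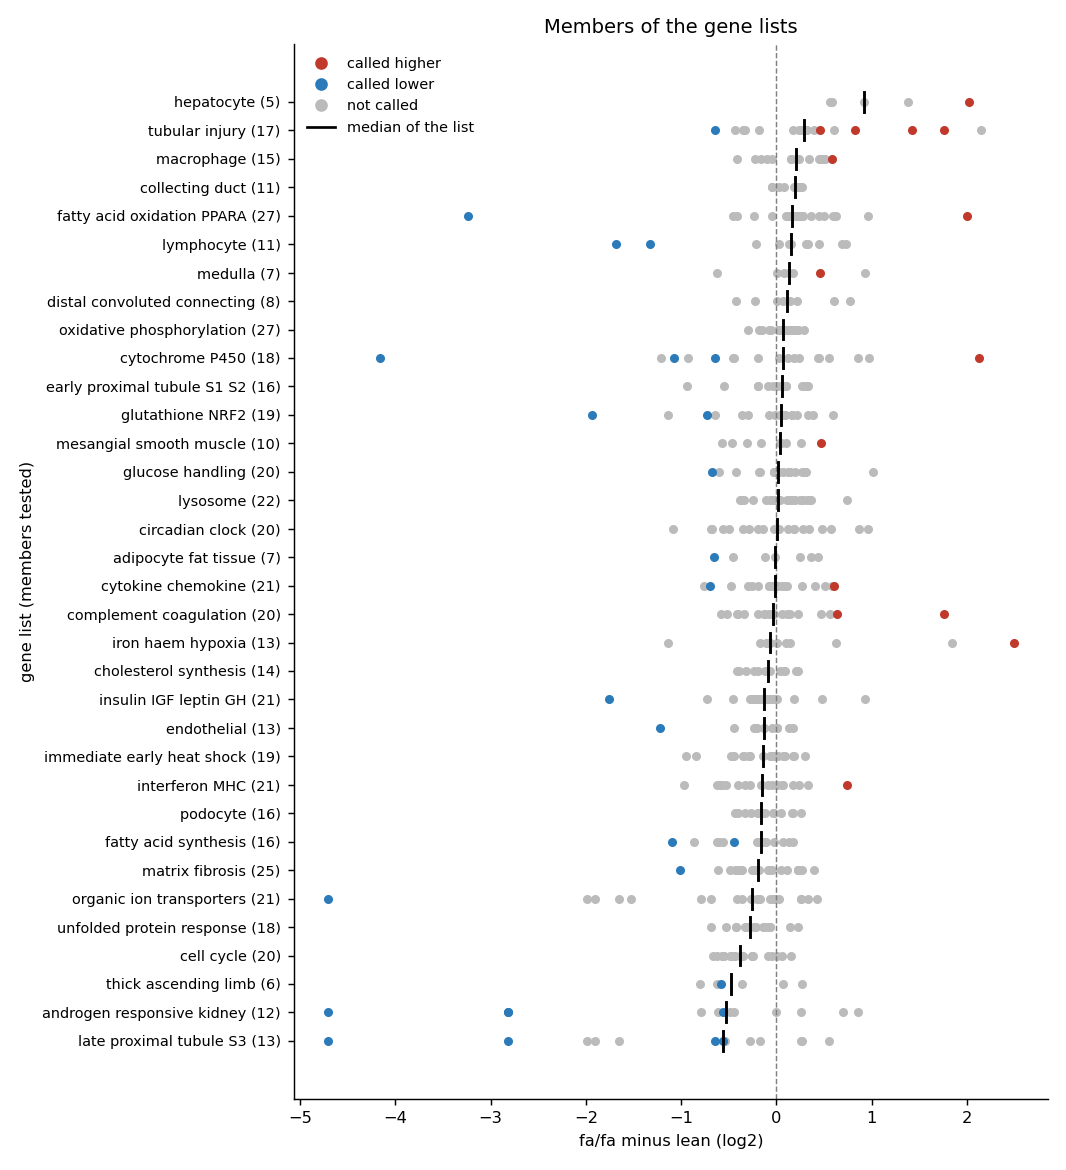
Difference between fa/fa and lean (log2) for the tested members of each reported gene list with at least 5 of them, with called members in colour and a bar at the median of the list. The androgen-responsive and S3 lists show 4 called lower each and medians of -0.53 and -0.56, and the early proximal tubule list shows none called.

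RYGB was compared with disease to see which of the 185 genes the operated rats still shared with the disease rats. This difference uses no lean library. It was called in 34 of the 185 genes (18.4%), beside 552 of all 13988 (3.95%), and lay toward lean in 15 and away from lean in 19. Among the 128 shared genes it was called in 2, Prom1 and Me1, both away from lean, but the ratio that defines the shared genes limits how far the 2 groups can differ. Over the 81 genes called higher the median of RYGB minus disease was 0.14, and over the 104 called lower it was 0.19, against -0.000866 over all tested genes. In 92 of the 185 genes the 95% interval of RYGB minus disease lay within -1 and 1 on the log2 scale, as it did in 11788 of all 13988 tested genes, a larger share. Without lean 4 the difference was called in 148 of 694 genes, beside 5.42% of all tested genes, and without lean 4 and disease 6 in 191 of 1785, beside 4.31%.

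Among genes called in both comparisons with a mean of at least 50 in 1 group, the largest difference toward lean was that of Klk1c2, a kallikrein of a large family whose shared reads were not counted. It lay at 50.9 to 115.3 (median 82.59) in lean, 3.395 to 16.96 (median 9.55) in disease and 67.24 to 163 (median 139.3) in RYGB. Disease libraries lay below all others, and RYGB libraries lay in or above the lean range. RYGB minus disease was 3.56 (95% interval 2.89 to 4.22, adjusted p = 7.21e-06), and the pooled call at -1.17 (adjusted p = 0.0375) averages -2.95 in disease and 0.61 in RYGB. That pooled call was lost in 11 of 29 alternatives (adjusted p of 0.0505 to 0.42), without any 1 of lean 1, lean 2, lean 5, lean 6, disease 2, disease 4, RYGB 1, RYGB 3 and RYGB 6, with 2 group means and with the block. Lipg, endothelial lipase, was 130.6 to 231.2 in lean, 4.919 to 23.12 in disease and 29.76 to 114.1 in RYGB. RYGB was higher than disease by 2.61 (95% interval 1.87 to 3.34, adjusted p = 0.00044), yet every RYGB library remained below every lean library. Spp1, osteopontin, had medians of 3721 in lean, 23380 in disease and 4693 in RYGB, and RYGB minus disease was -2.14 (95% interval -2.62 to -1.66, adjusted p = 5.41e-05). Scart1, a scavenger receptor relative, was lower in RYGB than in disease (RYGB minus disease -2.17, adjusted p = 0.0076), and Rgn, regucalcin, was higher by 1.21 (adjusted p = 0.0298). The pooled calls of Spp1 and Scart1 were lost with 2 group means (adjusted p of 0.166 and 0.082). Des, desmin, and Clu, clusterin, followed the same course, with RYGB minus disease at -0.77 (adjusted p = 0.00226) and -1.002 (adjusted p = 0.000344). Their pooled differences of 0.47 (adjusted p = 0.0412) and 0.46 (adjusted p = 0.0476) were lost in 13 and 17 of 29 alternatives, among them the omission of lean 2, lean 3, lean 5, lean 6, disease 2, disease 3, disease 5, RYGB 2, RYGB 4 or RYGB 6 for both, of disease 1 for Des, and of lean 1, disease 4 or RYGB 5 for Clu (adjusted p of up to 0.248 and 0.323). Both were lost with 2 group means, Des with replicate numbers as a block (adjusted p = 0.0952), and Clu with no filter, a minimum of 50 and quantile normalization.

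Among the same genes, the difference away from lean was largest in Alox15, a lipoxygenase, with medians of 38.27 in lean, 75.9 in disease and 1207 in RYGB. Its RYGB libraries, at 499.5 to 3483, all exceeded the others, and RYGB minus disease was 4.16 (95% interval 2.83 to 5.49, adjusted p = 0.000988). Cyp27b1 followed at 3.97 (95% interval 2.95 to 4.99, adjusted p = 0.000325). Epo, erythropoietin, was at 0 to 8.405 in lean, 3.92 to 12.78 in disease and 13.17 to 188.5 in RYGB, with RYGB minus disease at 2.66 (95% interval 1.54 to 3.79, adjusted p = 0.00878). Hao1, glycolate oxidase, and Col6a5, a collagen chain, moved further down in RYGB, by -2.67 (adjusted p = 0.0428) and -2.05 (adjusted p = 0.00213), with RYGB medians of 3.839 and 12.44 against 147.5 and 123.8 in lean. The pooled calls of Alox15, Epo, Hao1 and Col6a5 were lost with 2 group means (adjusted p of 0.152, 0.106, 0.0686 and 0.0563). In these genes the pooled difference averages unlike groups.

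**Figure D4:**
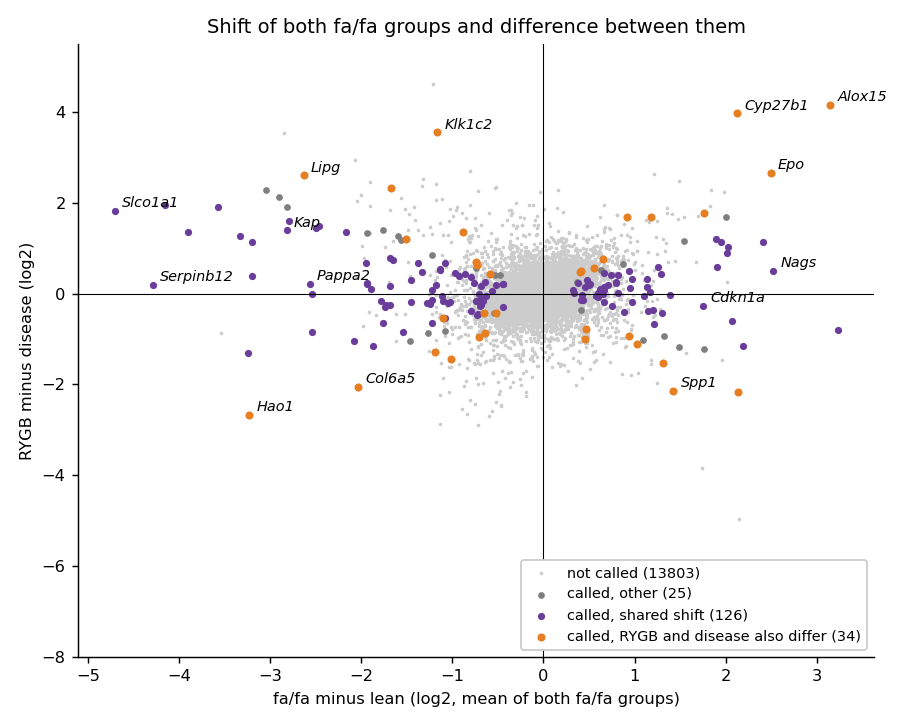
Each point is a gene, with fa/fa minus lean on the horizontal axis and RYGB minus disease on the vertical axis (log2). Of the 185 called genes, 34 also differ between RYGB and disease, with Klk1c2 and Lipg toward lean and Alox15, Cyp27b1, Hao1 and Col6a5 away from it, while Serpinb12, Pappa2 and Cdkn1a lie near 0 on the vertical axis.

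Lepr itself was checked because the groups differ in its allele. It lay at 95.67 to 250.1 (median 198.1) in lean, 81.45 to 202 (median 107.8) in disease and 57.04 to 176.4 (median 108.1) in RYGB. The groups overlapped, with lean 4 at 95.67 and disease 6 at 202. The difference was -0.73 ± 0.23 (adjusted p = 0.116), at -0.66 in disease and -0.81 in RYGB, and it was called without lean 4 (adjusted p = 0.017), without disease 6 (adjusted p = 0.0463), without both (adjusted p = 0.00443) and with DESeq2 (adjusted p = 0.0264). Messenger RNA level does not check the labels here, since the fa allele changes the receptor's coding sequence, whose reads were not used. Of the 40 tested genes nearest to Lepr on chromosome 5, 20 on either side in the order of the GRCr8 gene table, 0 were called by limma, and 4 had an unadjusted p below 0.05 (10%, against 18% of all tested genes). Their median difference was -0.08 and their median absolute difference 0.14, against 0.17 for all tested genes. Leprot, which overlaps Lepr at its start, was at -0.02 (adjusted p = 0.894). Without lean 4 and disease 6, 5 of the 40 were called, all lower (Usp1, Cachd1, Jak1, Prkaa2 and Usp24, adjusted p of 0.0136 to 0.0476). In that setting 12.8% of all tested genes were called, 6.07% higher and 6.75% lower. Whether the 5 of 40 called lower exceed the 6.75% was not tested.

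**Figure D5:**
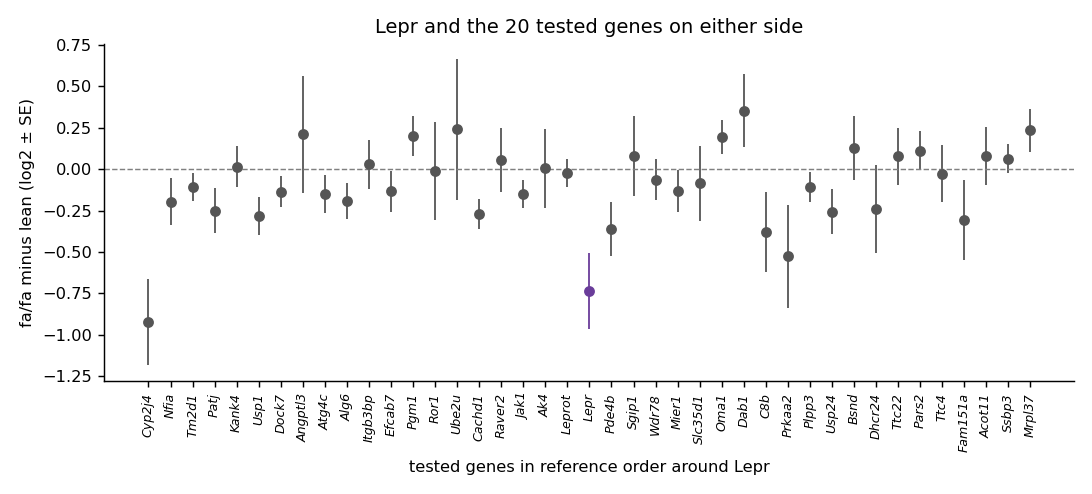
Difference between fa/fa and lean (log2, with its SE as bars) for Lepr and the 20 tested genes on either side of it in gene order. Lepr lies at -0.73, and none of its 40 neighbours are called with all libraries.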

How the data were processed

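The authors deposited a normalised signal for each gene, in which a library's counts are divided by its size factor. FastQC 0.11.2, MultiQC 0.9, HTSeq 0.6.1p1, DESeq2 and the build Rnor 5.0 are named, per the submitters' processing notes. For aligner and annotation: not given in the sources used here. Per the labels' protocols, RNA of frozen cortex was made into libraries with a stranded kit for polyadenylated RNA. How strand was used in counting is unstated, so overlapping and antisense genes are uncertain.

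Of 18423 rows, 3 name no gene (reads outside genes, 27.62 to 43.17% of counted reads, reads placed more than once, 13.46 to 18.13%, and ambiguous reads, 0.06949 to 0.1137%) and were left out. The remaining values are whole multiples of 1 step per library, at least 99.9946% of them within 0.01 reads, so whole reads were recovered for count tests. Libraries of a group always differed by more than sampling noise (chi-square over its degrees of freedom at least 22.53).

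Genes reaching a value of 10 in 6 or more of 18 libraries were tested on log2(value + 1) with limma 3.58.1 under R 4.3.3, using its trended variance. That scale understates changes of low genes. One fit of 3 group means (15 residual degrees of freedom) gave every contrast, two-sided and adjusted by Benjamini-Hochberg. edgeR 4.0.16 (270 genes called) and DESeq2 1.42.0 (634) on the recovered reads were alternatives, as were other pseudocounts, filters, scaling and models, and leaving out each library. On simulated counts with known changes, the fa/fa comparison recovered 53.7% of 1.5-fold, 92.5% of 2-fold and 95.5% of 4-fold changes among 13988 genes, with 5.85% of its calls false. The simulation drew each gene independently, gave both fa/fa groups the same change and held no library that stood apart. Its shares therefore need not hold for these libraries.

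Named genes were the 12 highest and 12 lowest among called genes with a shared difference and a mean of at least 50 in lean or fa/fa, up to 3 called genes per list (lowest adjusted p), the 5 largest differences toward and away from lean among genes called both in fa/fa against lean and in RYGB against disease (mean of at least 50 in 1 group), and Lepr. Cyp24a1, Krt8 and members without a call were added to describe their lists, chosen after their values were seen. The comparison, the 39 lists (676 symbols, 585 in the table, 8 of them under another symbol, 538 tested) and the rule were chosen with earlier results of these data known. RefSeq tables of GRCr8 served for promoters and gene order. Only genes with a single promoter window were searched, and no coordinates of GRCr8 were joined to the deposited values. Some genes of the rule and 1 list are not reported here, but they count in the totals of genes, lists and calls.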

Additional observations from a re-analysis of the deposited data

Results flagged for a closer look

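Libraries far from the rest of their group were searched in 177 groups of 6 (59 genes in 3 groups). In 22 groups (12.4%) the highest or lowest library stood apart by Dixon's criterion, and 8 of the 22 were lean 4. The criterion was applied to normalised reads without a log, where high values stand apart more easily than low ones. Chance gives about 1 in 20 only for normally distributed values, so the 12.4% cannot be read as an excess. Hao1 in lean 4, at 4.906 against 93.12 to 211.3 in the other lean libraries, was not flagged. In that library Abcb11 was at 260, Rbp4 at 1673, Bhmt at 9744 and Sult1a1 at 2137 normalised reads, each above the other lean libraries. Igf1 was at 110.4, Vwf at 83.4, Mmp2 at 176.6 and Cxcl12 at 2372 in lean 4, each below them. Disease 5 stood apart in 4 genes, with Anxa13 at 12.33, Kap at 13670, Mmp9 at 229.7 and Rgn at 1059. Disease 6 stood apart in Hao1, at 54.31. The other libraries that stood apart were disease 4 in Nags (102.6) and Cxcl11 (487), disease 2 in S100a9 (212.6), lean 3 in Serpinb12 (143.7), and lean 1 in Cyp27b1 (30.67) and Lpl (4152). Among RYGB libraries these were RYGB 1 in C4b (213.9) and Alox15 (3483) and RYGB 2 in Mmp9 (142.6).

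In 17 of the named genes the effect against lean differed between RYGB and disease, by the limma test of RYGB minus disease. The difference was positive (log2) in Alox15 (4.16), Cyp27b1 (3.97), Klk1c2 (3.56), Epo (2.66), Lipg (2.61), Rgn (1.21) and Cldn10 (0.43). It was negative in Hao1 (-2.67), Scart1 (-2.17), Spp1 (-2.14), Col6a5 (-2.05), Mmp2 (-1.43), Clu (-1.002), Cyp7b1 (-0.88), Des (-0.77), Me1 (-0.53) and Prom1 (-0.43).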

How the results depend on the processing

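Of the 60 named genes called in fa/fa against lean, 33 were called under all 29 alternatives and 42 under all 18 that left out 1 library, and in none did the direction reverse. The count called was 185 with limma, 634 with DESeq2 (289 higher, 345 lower) and 101 with 2 group means in place of 3 (39 higher, 62 lower). edgeR called 181 lower with TMM and 186 lower with the authors' size factors. Leaving out 1 library gave 106 to 694 called (41 to 315 higher, 59 to 379 lower), with the low end from omission of lean 1 or lean 2 and the high end from omission of lean 4. Without disease 6 it was 409 (198 higher, 211 lower). Shared differences numbered 128 at first, 393 with DESeq2, 53 when the smaller had to be at least 0.75 of the larger, 61 when each fa/fa group had to be called by itself, and 74 to 460 without 1 library. Genes without overlap numbered 28, and 28 to 124 without 1 library. RYGB against disease was called in 34 of the 185, in 53 after quantile normalization, in 55 and 58 with edgeR, in 155 with DESeq2 and in 16 to 148 without 1 library, each among the genes that the setting called. Leaving out lean 4 and disease 6 together, an alternative chosen after seeing the data, gave 1785 called (845 higher, 940 lower), 1328 shared, 271 without overlap and 191 called in RYGB against disease. The cause of these shifts was not tested. Replicate numbers recur in each group. The deviations of same-numbered libraries had correlations of 0.131 to 0.325 in all 6 pairs of lean with disease, -0.31 to 0.0141 between lean and RYGB and -0.557 to 0.309 between disease and RYGB, so over the 18 pairs of this comparison only 7 were above 0.1 and 3 of 18 libraries lay closest to their own number, and the numbers were not taken as pairs. With the replicate number as a block 144 genes were called (58 higher, 86 lower), of which 135 were among the 185. Simulated 1.5-fold changes, without libraries that stand apart, were recovered in 53.7%, so smaller changes may be missed at this number of libraries.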
